A study of Dugesia japonica with 4 samples.

Results

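The tissue described here is the rim of the sections in well A, 1 of 4 Visium libraries of the head blastema of the planarian flatworm Dugesia japonica, set beside the rims of the sections in wells B, C and D. Members were chosen from array positions alone. A section was a group of 5 or more tissue spots that touched on the hexagonal array, and a rim spot was a spot of a section with tissue missing on at least 1 of its 6 sides. The rim of well A held 148 spots on 12 sections, out of 829 rim spots on 48 sections and 1216 tissue spots in all. Wells B, C and D contributed 151, 252 and 278 rim spots on 36 sections.

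All 4 libraries carry the same labels, wild type at 5 dpa, so the wells form 1 group and no treatment or genotype separates them. The tissue was fresh frozen and cut at 8 µm from the front of the animal towards the back, and polyadenylated RNA was captured on spots that each cover a small area and can hold several cells. The labels do not give the number of animals, which slice went to which well, or the order of the slices within a well. A well is therefore 1 library, its sections share that library, and every difference below describes these 4 libraries. An exact permutation test that sets 1 library against 3 cannot give a p below 0.25, so the comparison was made by size and carries no p-value. Well A was singled out with earlier results of these data known.

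A blastema is the mound of new tissue that planarians grow over a wound, built by descendants of their pluripotent stem cells, the neoblasts. In an intact planarian a ciliated epidermis covers the body over layers of body wall muscle, while gut branches, nerve cords and the mesenchyme that holds neoblasts and gland cells lie deeper. A rim spot reaches the outer border of the tissue and an interior spot does not. The feature lists give identifiers with no gene names, so no gene below has a known role here, no cell type marker could be looked up, and gene groups were formed by place in the tissue. The counts are sums over many cells, so fewer cells of a type and less RNA per cell cannot be told apart.

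Sections of well A were small, with a median of 14 spots (10 to 18), against medians of 17.5, 34.5 and 35.0 for wells B, C and D. Rim spots made up 86.5% of the section spots in well A and 82.5%, 64.5% and 66.5% of those in wells B, C and D. The rim of well A gave 1275559 unique molecular identifiers (UMIs, each standing for 1 captured RNA molecule), and those of wells B, C and D gave 1646634, 2542059 and 2085141. A median rim spot held 8557 UMIs and 2936 genes in well A, within the range of the other wells (6912 to 10255 UMIs and 2308 to 3126 genes). The rims were also alike in exposure, with a mean of 2.55 neighbours off tissue per rim spot in well A and 2.29 to 2.57 in the others. The left side, towards lower array columns from a section's centre, held 52.7% of the rim spots in well A and 51.1% to 56.3% elsewhere. Between 19 and 112 spot barcodes occurred in both members of a pair of libraries, and every pair of rims differed by more than counting noise, with a chi-square of at least 6.55 for each degree of freedom.

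**Figure D1:**
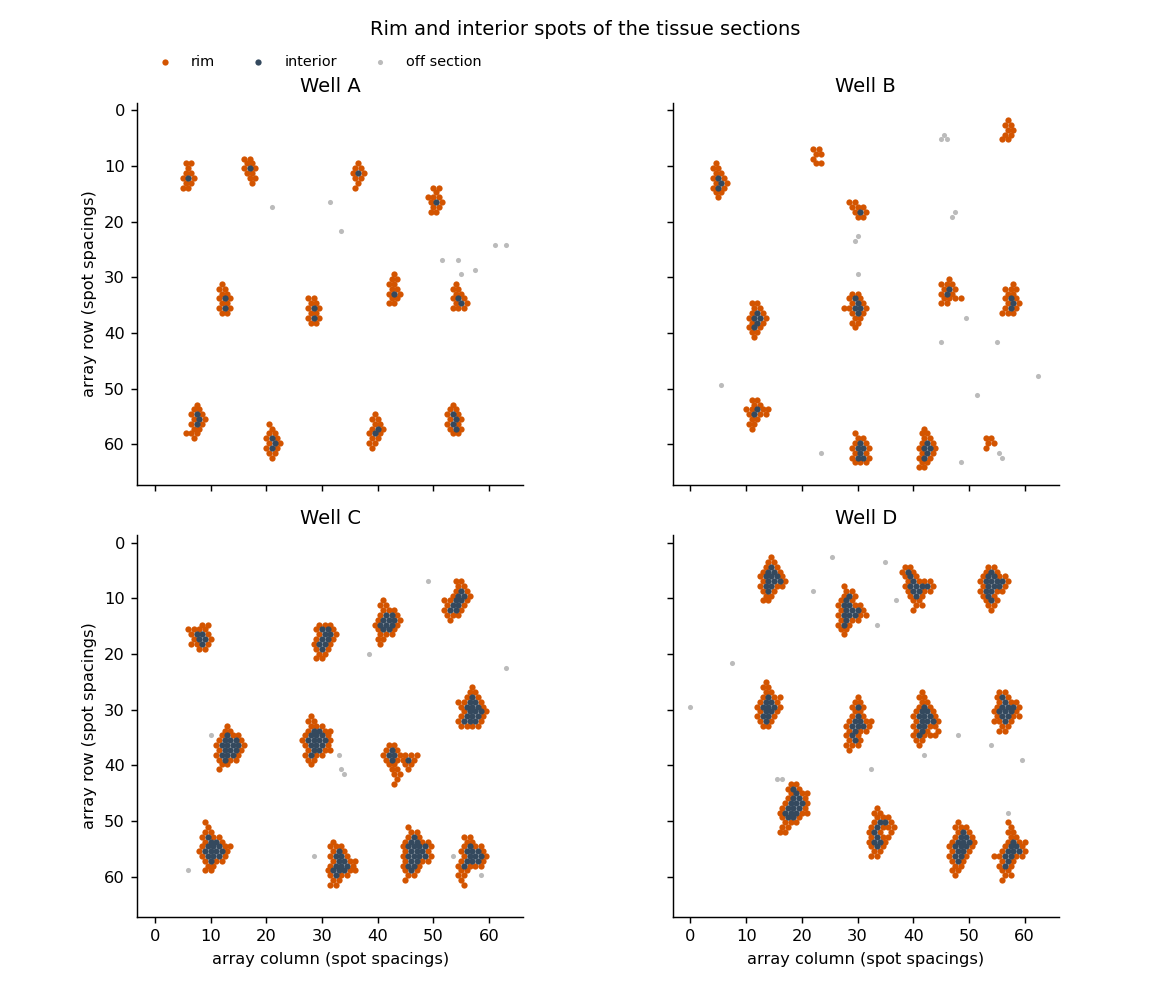
Position of rim spots (orange), interior spots (dark) and spots off the sections (grey) on the 4 arrays, in spot spacings along columns (x axis) and rows (y axis). Each well carries 12 sections, and those of well A have a median of 14 spots against 34.5 and 35.0 in wells C and D.

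The first question was how far the rim of well A stood from the other rims, gene by gene. Well A was higher for 320 genes and lower for 632 of the 7746 genes compared, which is 4.13% and 8.16% of them. A gene was counted as set apart only when its rim level in well A was at least 2-fold beyond the nearest of wells B, C and D. Levels are CPM (counts per 1000000 effective UMIs) scaled with TMM factors, and the genes compared had a mean of at least 10 CPM over the 4 rims. A gene scarce in wells B, C and D could pass this filter through its level in well A alone. With each of the other wells in its place, the same rule set apart 4 higher and 19 lower genes for well B, 26 and 13 for well C, and 17 and 25 for well D, which is 0.0516% and 0.245%, 0.336% and 0.168%, and 0.219% and 0.323% of the genes compared. Wells B, C and D themselves lay close together. Their highest value exceeded their lowest by a median of 1.33-fold. The log2 levels of well A correlated with those of the other rims at r = 0.83 to 0.88, and the other rims with each other at 0.957 to 0.979 (Pearson r over 7746 genes, as a description, since genes are no replicates).

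The losses went deeper than the gains. Genes lower in well A differed from the nearest well by a median of 3.03-fold, with 203 genes at 4-fold or more and 53 at 10-fold or more. Genes higher in well A differed by a median of 2.43-fold, with 21 at 4-fold or more and 3 at 10-fold or more. The lower genes supplied 3.82% of the rim UMIs in well A and 17.4%, 19.9% and 19.7% in wells B, C and D. The higher genes supplied 4.12% in well A and 1.44%, 1.06% and 1.14% in the others. These shares belong to genes chosen by the same counts and describe them only. Many of the lower genes were abundant. Of the 788 genes with a mean of 200 CPM or more, 125 (15.9%) were lower in well A and 22 (2.79%) higher, while among the 4814 genes between 10 and 50 CPM 343 (7.13%) were lower and 240 (4.99%) higher. Of the 10 most abundant genes in the rims of wells B, C and D, 5 were set apart as lower in well A and 0 as higher. Of the 10 most abundant in the rim of well A, 0 were set apart in either direction, and of its top 50, 0 were higher and 2 lower. A list taken from wells B, C and D, or a mean in which they outweigh well A, favours genes lower in well A. The balance of directions depended on the scaling. With library totals in place of TMM, 497 genes were higher and 476 lower, so that 51.1% of the set-apart genes were higher against 33.6% with TMM. The median log2 difference of all genes was then 0.19, against -0.03 with TMM. The changes given here are relative to the TMM scale.

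**Figure D2:**
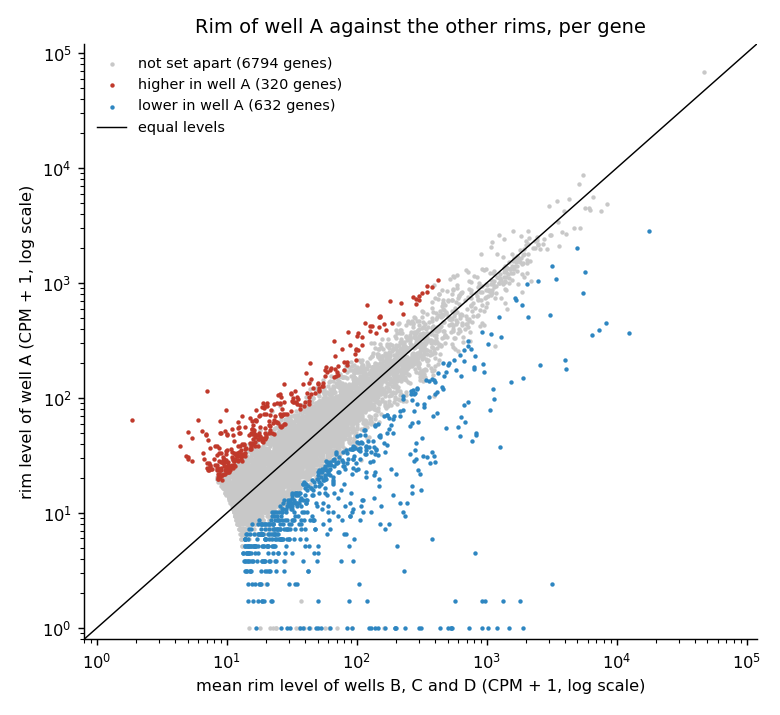
Rim level of each gene in well A (y axis) against the mean of wells B, C and D (x axis), both as CPM + 1 on log scales, with genes set apart by 2-fold in red (320 higher) and blue (632 lower). The blue points reach down to a level of 0 in well A at levels of up to 1904 CPM in the other wells, while the red points stay nearer to the line of equal levels.

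The genes described next were, among set-apart genes with a mean of at least 50 CPM over the 4 rims, those furthest from the nearest well with all 12 sections of well A past the median of the other sections. Among scarcer genes, 3 stood 10-fold or more above the nearest well, and these passed the level filter only through well A. DJKW.4714 had 2 UMIs in the whole rim of well A, or 1.40 CPM (exact Poisson 95% interval 0.170 to 5.07). Wells B, C and D held 4697, 8648 and 6106 UMIs of it, or 2760, 3656 and 3148 CPM (mean 3188 ± 450, SD, n = 3 libraries). Taken from the counts as they stand, the level in well B was 1967 times that in well A, with a 95% counting interval of 544 to 16247 from the exact binomial method. By section, 2 of the 12 rims in well A held a UMI of DJKW.4714, the highest at 9.04 CPM. All 36 rims of the other wells held it, from 472 CPM over a median of 2708 to 8768, so the wells did not overlap.

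DJKW.26904 had 0 UMIs in the rim of well A, taken here to allow up to 2.10 CPM (3 UMIs). The rims of wells B, C and D had 2936, 4771 and 3822 UMIs, or 1725, 2017 and 1970 CPM (mean 1904 ± 157, SD, n = 3 libraries). Against a floor of 3 UMIs in the library of well A, the gene was at least 819.7-fold lower there than in well B. None of the 12 rims of well A held it, whereas the 36 other rims ranged from 108 CPM over a median of 1524 to 5330.

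Gains were milder and their sections came closer to those of the other wells. DJKW.24742 stood at 131 CPM in the rim of well A (113 to 151, exact Poisson 95% interval) and at 30.6, 20.7 and 27.8 CPM in wells B, C and D (mean 26.4 ± 5.08, SD, n = 3 libraries). It was 4.29-fold above well B, the nearest, with a counting interval of 3.14 to 5.96. Rims in well A ranged from 43.0 CPM over a median of 132 to 193, and those of the other wells from 0 over 24.9 to 63.6. Most of the rims of well A, 10 of 12, lay above every rim of the other wells, and the ranges overlapped through the remaining sections.

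DJKW.9470 followed at 312 CPM in well A (284 to 343) and 68.7, 54.5 and 73.7 CPM in wells B, C and D (mean 65.7 ± 9.95, SD, n = 3 libraries). It was 4.23-fold above well D, with a counting interval of 3.50 to 5.15. The rims of well A ranged from 154 CPM over 297 to 419 and the others from 0 over 63.5 to 164, so that 11 of 12 rims of well A lay above all others. The intervals of these genes cover counting error only and not the spread between libraries.

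DJKW.19663, the most abundant feature at the rim, was not set apart. It took 7.65% of the rim UMIs in well A and 3.69%, 4.14% and 5.60% in wells B, C and D, or 68408, 35677, 44458 and 60146 CPM. Well A was the highest, at 1.14 times the level of well D. The rims of well A spread from 29346 CPM over a median of 53955 to 122957, and 2 of the 12 lay above every rim of the other wells (23614 over 47214 to 107793). For this feature the spread between sections of well A was thus wider than its distance from the other wells.

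**Figure D3:**
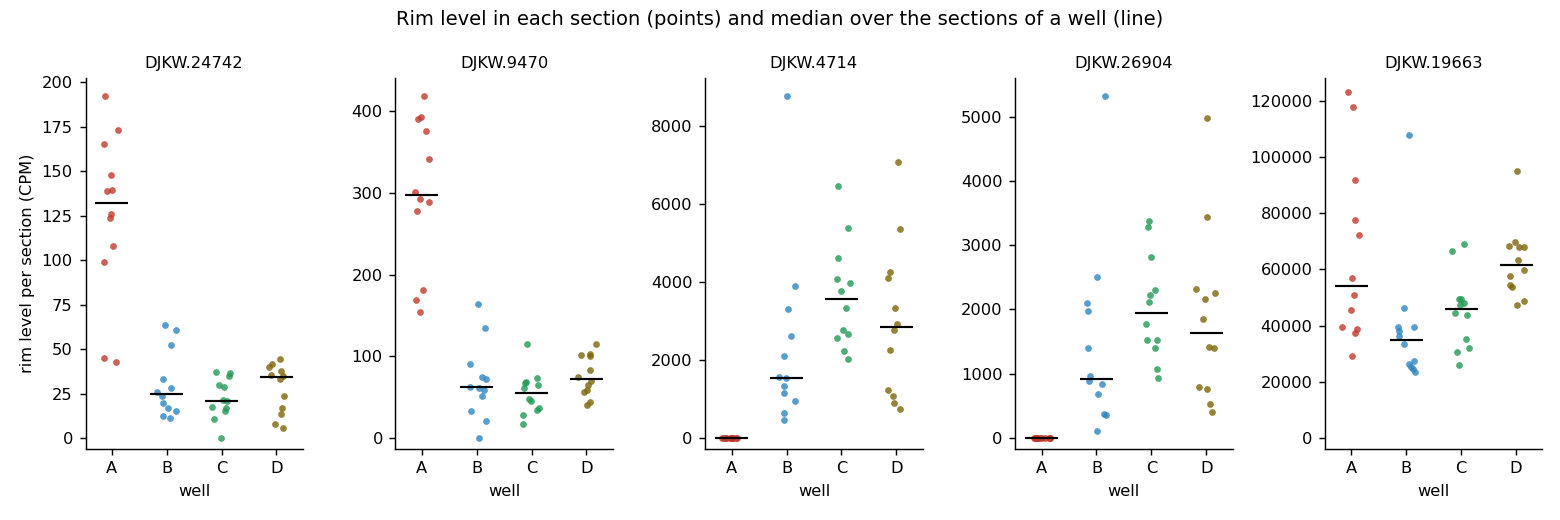
Rim level in CPM (y axes, from 0) of the named genes in every section of the 4 wells, 1 point per section, with the median of each well as a line. In well A, DJKW.4714 and DJKW.26904 lie at or near 0 in all 12 sections, DJKW.24742 and DJKW.9470 lie mostly above the other wells, and DJKW.19663 overlaps with them.

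Across the set-apart genes the sections of well A mostly lay on the same side, though few genes kept the wells fully apart. Of the 632 lower genes, 483 were below the median of the other 36 rims in each of the 12 rims of well A, and 181 of the 320 higher genes were above it in each. Since the genes were chosen by the sums of these same rims, the counts describe them only. The share over all genes compared was not counted. In 23 genes (0.297% of those compared) every rim of well A lay above every other rim, and in 39 genes (0.503%) every one lay below. The same full separation was found for 6 genes above (0.0775%) and 0 below in well C, and for 0 genes in wells B and D. Taking whole profiles, all 12 rims of well A were most like the remaining rims of well A (r = 0.89 to 0.927 across genes on log2(CPM + 10)). Likeness to the own well was not particular to well A, as it held for 12, 12 and 11 of the 12 rims in wells B, C and D. None of the 36 other rims was most like well A. The rims of well A had r = 0.725 to 0.841 with the other wells pooled.

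The rims of well A were not all equally far from the others. Sections lie in 3 rows of 4 on each array, and in well A they grew in size from the first row (10 to 13 spots) over the second (14 to 15) to the third (16 to 18). The 632 lower genes supplied 2.85% of the rim UMIs in the first row, 3.21% in the second and 5.83% in the third. The 320 higher genes supplied 4.57%, 4.22% and 3.46%. The median correlation of a rim with the other wells pooled was 0.755, 0.776 and 0.805 in the same order. The third row of well A was thus the nearest to the other wells, yet the highest share of the lower genes in any of its sections, 7.92%, remained under the lowest of the 36 other sections, 11.6%. The lowest share of the higher genes in its sections, 2.9%, remained above their highest, 2.21%. Both sets of genes were chosen by the sums of these same sections, so the lack of overlap describes them only. Size, depth and position moved together here: the median rim spot of a section held 10900 UMIs in the first row, 10368 in the second and 6325 in the third. Their part in the difference between rows was not tested.

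**Figure D4:**
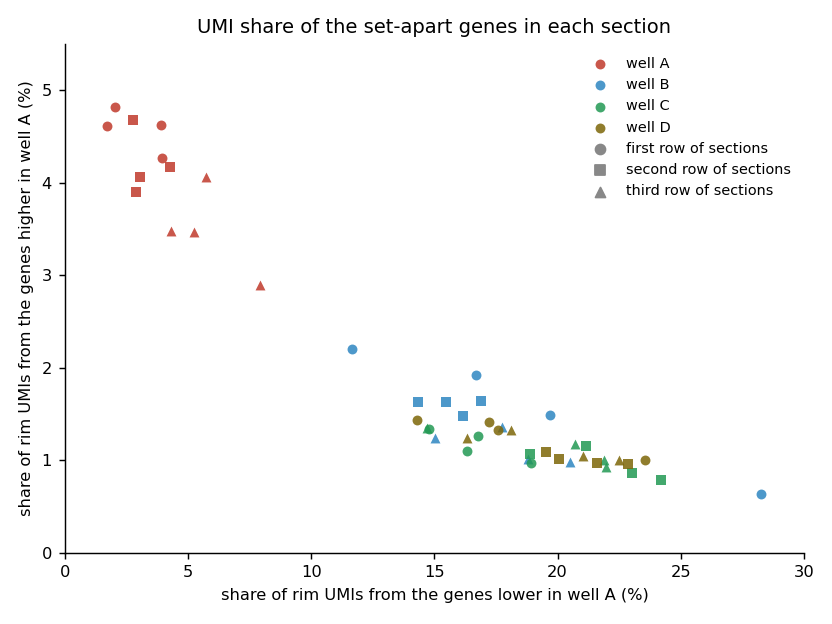
Share of each section's rim UMIs taken by the genes lower in well A (x axis, %) and by those higher in well A (y axis, %), coloured by well, with the symbol giving the row of sections on the array. Sections of well A span 1.7% to 7.92% on the x axis and 2.9% to 4.82% on the y axis, and none of the 36 other sections falls within those ranges. The genes were chosen by the well sums of these same sections, so the gap is a description only.

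Section size was also compared directly, because well B held sections about as small as those of well A. Among sections of 10 to 20 spots, of which well A has 12 and wells B, C and D have 7, 1 and 0, 318 genes were higher and 676 lower in well A, 199 and 497 of them also set apart over all sections. In these 8 sections of the other wells, the lower genes took 11.6% to 20.5% of the rim UMIs and the higher genes 0.967% to 2.21%. In the 3 sections of under 10 spots, all in well B, the lower genes took 16.7% to 28.3%. The counts of all these sections entered the choice of the genes, so the shares describe them and do not test the part of section size. Well D has no section of 10 to 20 spots, so the nearest well was chosen from 2 wells. Over all sections without well D, 457 genes were higher and 707 lower.

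The second question was where in the tissue the set-apart genes lay in the wells that have them. Groups of genes were formed by their lean in wells B, C and D, each 2-fold or more towards a place in all 3 wells. They were drawn from the genes compared, and the level filter of those includes well A. The interior-leaning genes numbered 421, and 214 of them (50.8%) were lower in the rim of well A while 1 was higher. Their median log2 difference was -1.30, against -0.03 for all genes compared, of which 8.16% were lower. They supplied 3.98% of the rim UMIs in well A and 11%, 12.9% and 13.7% in wells B, C and D. The groups were formed with rim counts of wells B, C and D that also enter the comparison, so the counts describe and do not test.

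Genes leaning to the right side of the rim stood furthest from the rest. Of 69 such genes 58 (84.1%) were lower in well A and 0 higher, with a median log2 difference of -3.64, and they supplied 0.21% of the rim UMIs in well A against 4.63%, 4.76% and 4.32% in the other wells. This group overlaps with the previous one, as 51 of its genes (73.9% of the 69 and 12.1% of the 421) also lean to the interior, and 49 of those 51 were lower in well A. DJKW.4714 and DJKW.26904 belong to both groups. Left and right are directions on the array, and the labels do not give the side of the animal.

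Genes leaning to the rim or to its left side went the other way by a smaller amount. Of 334 rim-leaning genes 33 (9.88%) were higher in well A and 20 (5.99%) lower, with a median log2 difference of 0.32. Of 92 genes leaning to the left side 20 (21.7%) were higher and 4 (4.35%) lower, with a median of 0.46, and 35 of the 92 are also rim-leaning. DJKW.9470 is among those 35, and DJKW.24742 is in none of the groups. Among all genes compared 4.13% were higher. Genes leaning to the ends of the sections, within 0.25 of the section's length from either end along the array rows, numbered 50, with 0 higher and 19 (38%) lower. Of these 50, 31 (62%) are also rim-leaning, and 12 of those 31 were lower in well A. In the 20 genes leaning to the middle, 2 were higher and 5 lower and the median of 0.09 changed sign between settings, so they have no settled direction.

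Place groups hold only part of the difference. They take in 40.3% of the 632 lower genes and 14.7% of the 320 higher genes, against 11% of all genes compared. The 6891 genes in no group still included 377 (5.47%) lower and 273 (3.96%) higher in well A, with a median log2 difference of -0.0042.

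**Figure D5:**
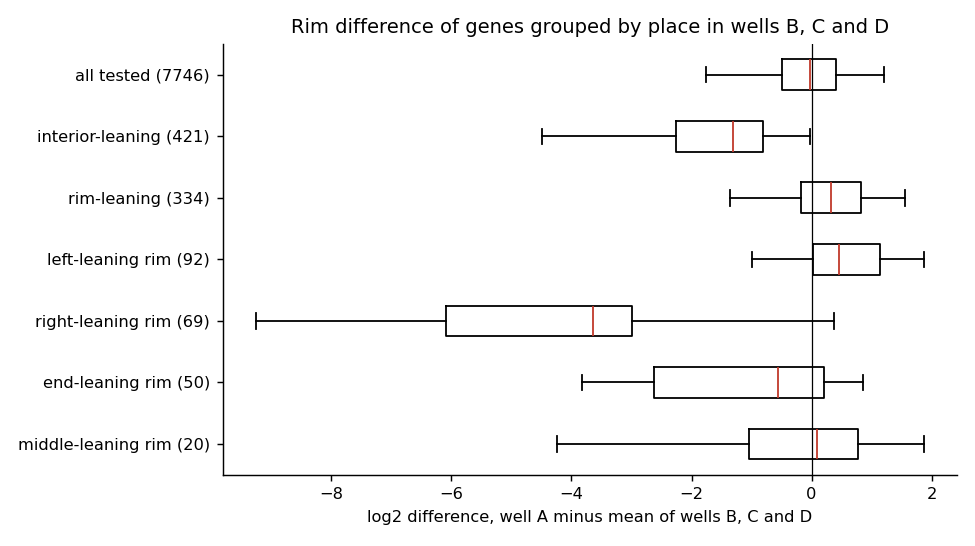
Log2 difference in rim level between well A and the mean of wells B, C and D (x axis) for all genes compared and for the groups formed by place in wells B, C and D, with the number of genes in brackets. Boxes span the quartiles, the red line is the median and whiskers reach the 5th and 95th percentiles. The right-leaning (median -3.64) and interior-leaning (-1.30) groups lie to the left of all genes (-0.03).

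Most genes of these groups that could be read in well A leaned the same way there. Of 301 interior-leaning genes with at least 20 UMIs in well A, 283 were higher inside than at the rim there too, with a median log2 ratio of 1.23 in well A and 1.42 to 1.72 in the others. Of 25 right-leaning genes with as many UMIs, 24 leaned right in well A (median 3.01, against 1.22 to 1.69 elsewhere), and of 81 left-leaning genes 75 leaned left. The rest of the 69 right-leaning genes were too scarce in well A to be read. For all genes compared with as many UMIs, the median log2 ratios in well A were -0.13 for interior to rim and -0.007 for left to right. The share of all genes leaning each way was not counted. Rim-leaning genes kept their side less fully, with 259 of 326 higher at the rim in well A and a median log2 ratio of rim to interior of 1.23 there against 1.64 to 1.94 in the others. The genes higher in well A behaved otherwise across the depth of the section. Their median log2 ratio of interior to rim was -0.44, -0.95 and -1.09 in wells B, C and D and -0.06 in well A, close to the -0.13 of all genes there. DJKW.9470 turned round, with a log2 ratio of interior to rim of 0.65 in well A and of -1.82 to -2.56 in the others.

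The interior spots, which were not used to choose the set-apart genes, were compared for the same genes with no filter on their level inside. Of the 320 genes higher at the rim of well A, 235 (73.4%) were higher inside by 2-fold or more beyond the nearest well, against 9.3% of the 7746 genes, and 30 had under 3 UMIs in the interior of well A and were counted as higher in no case. Of the 632 lower genes 352 (55.7%) were lower inside by 2-fold or more, against 10.5% of all genes, and 0 genes of either set went the other way by 2-fold. Among the 632, 262 had under 3 UMIs in the interior of well A and were raised to 3 UMIs, which limits the loss that can be read there. DJKW.24742 stood at 167 CPM in the interior of well A and at 6.86 to 14.1 CPM in the others, and DJKW.9470 at 405 CPM against 9.6 to 14.1. DJKW.4714 had 2 UMIs in the interior of well A and DJKW.26904 had 0, against 5265 to 17064 and 3521 to 9486 UMIs in the other wells. Well A had 23 interior spots with 222105 UMIs, so its interior values are the less precise, and they come from the same library as its rim.

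At the extreme, 29 genes had at most 2 UMIs each in the rim of well A where the lowest of the other wells, scaled to the same total, gave 30 or more, a limit chosen after seeing the data. Together they had 10 UMIs in the rim of well A and 27018, 58309 and 40436 in wells B, C and D. The same limit found 0 such genes for wells B, C or D, and 0 genes present in well A but near absent from all other rims. The rims of wells B, C and D held more UMIs than that of well A, so a limit of 2 UMIs was stricter for them. DJKW.20519, with 91 UMIs in the rim of well A and 3, 2 and 0 in those of wells B, C and D, fell just outside it.

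Different parts of the rim were also compared one at a time. Each split holds 1 axis fixed and leaves the other free, and the ends held 54.7% of the rim spots in well A against 47.5% to 49.7% in the others. On the left side alone 354 genes were higher and 804 lower in well A, and on the right side alone 298 and 576. At the ends of the sections 353 were higher and 886 lower, and in the middle 253 and 539. In each of these parts 0 genes changed direction against the whole rim among those set apart in both. The counts of each part are included in those of the whole rim, so a change was unlikely from the start. In spots with 4 or more sides off tissue, 25 to 32 per well, 286 were higher and 373 lower, and 1 gene higher over the whole rim was lower there.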

How the data were processed

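The authors' deposited matrices hold raw UMI counts per feature and spot for spots on tissue, written by Space Ranger 2.0.1 per the file headers. The submitters' processing notes also name Seurat, while for the genome build and annotation the entry is not given in the sources used here. Members, gene groups and tests were chosen with earlier results of these data known. Counts of rim spots were summed per section and per well (80840 to 347344 UMIs per section outside well B, 56289 to 240931 in well B), and scaled with TMM factors (0.93 to 1.12) over the 4 well sums. Sums under 3 UMIs were set to 3 UMIs for the size rule and log2 differences, while the ratio printed for DJKW.4714 uses its counts as they stand. The gene naming rule took the first 2 per direction by fold from the nearest well, among set-apart genes with a mean of at least 50 CPM and all 12 sections of well A past the median of the other sections, plus the most abundant feature. Place groups needed a mean of at least 10 CPM. Interior sums were scaled with TMM factors of their own and compared for every gene compared at the rims. In simulated rims with a common dispersion of 0.02 and 200 changed genes, the size rule recovered 100% of genes raised and 97% of genes lowered 4-fold among 7483 genes, 21% and 24% at 2-fold among 7528, and set apart 31 of 7524 genes when none was changed. Real genes can vary more. edgeR 4.0.16 and DESeq2 1.42.0 in R 4.3.3 were run as alternatives only. Doublets were not called in spots. The 53 tissue spots off the sections were left out.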

Additional observations from a re-analysis of the deposited data

Results flagged for a closer look

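Among 25 sets of 4 library values, 8 held a library far from the other 3, by a gap larger than Dixon's 95% limit, where chance gives about 1.25, and it was well A in all 8. Most of these sets rest on genes chosen because well A differed, so they repeat the comparison. The number of genes beyond the other 3 wells was 320 higher and 632 lower for well A, against 4 to 26 and 13 to 25 for the others. The genes higher in well A took 4.12% of its rim UMIs (1.06% to 1.44% elsewhere), and the lower genes took 3.82% (17.4% to 19.9%). Single genes far from the other wells were DJKW.24742 at 131 CPM, DJKW.9470 at 312 CPM and DJKW.26904 at 0 CPM. The right-leaning rim genes, chosen by their lean in wells B, C and D among the genes compared, took 0.21% of its rim UMIs and 4.32% to 4.76% of those in the other wells. Counts of well A entered that choice only through the level filter of the genes compared. Section size, UMIs per rim spot, genes per rim spot and exposure were among the sets checked and held no library past the limit.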

How the results depend on the processing

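Well A rested on 1 library throughout, and at 10 CPM its rim sum holds few UMIs per gene, so small differences of scarce genes were not detectable. No paired analysis was possible because all 4 libraries belong to 1 group. The number higher moved from 320 to 497 with totals, 80 with a mean of at least 50 CPM, 642 without a filter, 827 at 1.5-fold, 21 at 4-fold and 506 with edgeR. It was 499 without well B, and 380 to 499 when 1 of wells B, C and D was left out. The number lower moved from 632 to 289 with a mean of at least 50 CPM, 1162 at 1.5-fold, 203 at 4-fold and 373 in spots with 4 or more sides off tissue, and was 637 to 788 when 1 of those wells was left out. Filters and folds change the counts by construction. The cause of the other moves was not tested. Leaving out single sections of well A gave 302 to 345 higher and 601 to 704 lower. With 1 library as an arm, edgeR called 290 of the 320 and 494 of the 632, while DESeq2 called 289 and 488 genes, including 206 and 410. In the 3 alternatives with another scaling or a thinned depth, 269 or more of the 320 and 476 or more of the 632 were shared. Without the 3 sections of well B under 10 spots, an alternative added after seeing the data, 311 were higher and 601 lower. The median log2 difference of interior-leaning genes was -1.09 with totals, -1.52 at 50 CPM and -1.04 in sections of 10 to 20 spots. That of left-leaning genes was 0.67 with totals, 0.67 in sections of 10 to 20 spots and 0.42 to 0.64 with 1 well left out. That of end-leaning genes was -0.34 with totals, -1.37 at 50 CPM, -0.67 in sections of 10 to 20 spots and -0.68 to -0.60 with 1 well left out. That of rim-leaning genes was 0.62 in sections of 10 to 20 spots. The middle-leaning median reversed to -1.64 at 50 CPM and was -0.024 to 0.12 with 1 well left out, being -0.024 without well C. The median of all genes turned to 0.19 with totals. Of 136 values of DJKW.24742, DJKW.9470, DJKW.4714 and DJKW.26904 under alternatives, 32 moved by at least the SD of the log2 levels of wells B, C and D, and 0 reversed. The log2 difference ranged from -11.1 to -5.94 for DJKW.4714 and from -14.8 to -5.09 for DJKW.26904. It ranged from 1.72 to 2.73 for DJKW.24742 and from 1.75 to 3.18 for DJKW.9470. These genes were chosen for their distance from the other wells, so a reversal was unlikely from the start.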

Other observations

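The 3 genes that were 10-fold or more above the nearest other well were scarce, below the 50 CPM mean of the naming rule, and were singled out after their values were seen. Each lay under 10 CPM in wells B, C and D and passed the level filter only through well A. Their values therefore describe them only. DJKW.20519 had 91 UMIs in the rim of well A, in 12 of 12 sections and 41 of 148 spots, and 3, 2 and 0 UMIs in the rims of wells B, C and D. DJKW.18797 had 163 UMIs in well A, in 12 of 12 sections and 64 spots, against 6, 15 and 16. DJKW.22658 had 90 UMIs in well A, in 12 of 12 sections and 43 spots, against 9, 11 and 10. No single section of well A held more than 24.2% of the UMIs of any of these genes in the rim of that well.

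Some of the lower genes had consecutive identifiers. Of the 616 lower genes with a DJKW identifier, 68 (11%) had another lower gene at the number directly before or after, and the longest unbroken run was 5 genes, whereas of all 7622 such genes compared 325 (4.26%) had a lower gene next to them. Among the 317 higher genes 2 (0.631%) had a higher gene next to them, against 163 (2.14%) of all. Whether the numbers follow positions in the genome is not given in the sources used here.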
